A study of Bos taurus with 33 samples.

Results

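The calgranulins S100A8, S100A9 and S100A12, the antibacterial proteins BPI and LTF (lactoferrin), the pentraxin PTX3 and the acute phase protein SAA3 were followed across bovine endometrium exposed to interferon or to an early conceptus. They are 7 of the 9155 genes named on the array and have 9 of its 24016 probe sets that are not controls. The genes were chosen on measured values of these same arrays, and every probe set that the array annotation gives to any of them was taken, with no threshold. Which comparison led to the choice is not recorded. The day 18 comparison of pregnant with cyclic animals is the likely one, so every value of these 7 genes that contains it is given as a description, without a p-value. The same holds for S100A12 in the difference between the IFNA effect and the day 15 pregnancy effect. The effects that make up that difference carry a p for S100A12 as a description only. Genes of the other lists, also chosen with earlier results known, carry their p over all probe sets as a description and are no independent support.

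S100A8 and S100A9 pair to form calprotectin, which binds calcium and withholds zinc and manganese from microbes. S100A12 is a related calcium-binding protein, and all of the calgranulins are abundant in the cytosol of neutrophils and are also made by activated monocytes and some epithelia. BPI (bactericidal/permeability-increasing protein) binds bacterial lipopolysaccharide and is stored in neutrophil granules; LTF binds iron and is both a granule protein and a secreted product of glandular epithelium. PTX3 is a secreted pattern recognition protein that stromal, endothelial and myeloid cells make in response to inflammatory cytokines. SAA3 is a serum amyloid A made outside the liver, often by epithelium. In ruminants the elongating conceptus secretes interferon tau, a type I interferon, which is the signal for maternal recognition of pregnancy and acts through the same receptor as interferon alpha (IFNA). In RefSeq's table of the bovine assembly ARS-UCD2.0, S100A8, S100A12 and S100A9 are neighbours in that order, with no other gene between them.

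Expression was measured in the endometrium of 33 Bavarian Simmental heifers with 1 Affymetrix array each, all after oestrus synchronisation with a single cloprostenol injection. In the biopsy experiment, 3 heifers per group received on day 14 of the cycle a lipid extrudate that releases human IFNA, the extrudate without interferon (placebo) or phosphate-buffered saline (PBS), placed through the cervix into the horn on the side of the corpus luteum. On day 16 the uterus was flushed and 6 biopsies per animal were taken from the caudal part of that horn. The other experiment compared heifers that were pregnant after insemination with cyclic heifers given sperm-free supernatant in place of semen, slaughtered on day 12 (5 and 5 animals), day 15 (3 and 3) or day 18 (4 and 4), and intercaruncular endometrium was taken. The tissue came from the distal part of the same horn on day 12, the medial part on day 15 and the caudal part on day 18, so day and part of the horn cannot be told apart. The IFNA is a human protein given to cattle, the biopsies were taken through the cervix after flushing, and the uteri of day 12 were flushed as well. Samples are pieces of tissue with many cell types, so fewer cells of a type and less RNA per cell cannot be told apart. The p-values measure the spread between these animals.

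Values are log2 levels, and differences are log2 differences ± the standard error from limma, with the threshold at an adjusted p of 0.05 over all probe sets. Where days, or biopsies and slaughter samples, are set side by side, each array was centred on its own median, because the biopsies and the arrays of each day appear to have been normalised separately; no test was made across them. RNA quality signals also differed: the GAPDH 3′ probe set exceeded the 5′ one by 1.03 to 3.87 in the biopsies and by -0.16 to 0.56 at slaughter. In the biopsies its means were close between the groups (2.38 with IFNA, 2.58 with placebo and 2.67 with PBS).

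Among the calgranulins, S100A12 was lower in the biopsies with IFNA than with placebo, whereas at slaughter it was higher in pregnant than in cyclic animals on days 15 and 18. With IFNA the 3 biopsy arrays read 7.38, 7.65 and 7.83, with placebo 9.70, 8.84 and 8.23, and with PBS 9.24, 9.50 and 9.25. All 3 IFNA arrays lay below all 6 controls, and the placebo arrays spread more widely than the PBS arrays. IFNA differed from placebo by -1.30 ± 0.316 (7.62 against 8.92, n = 3 and 3; limma adjusted p = 0.161) and from PBS by -1.71 ± 0.316 (9.33 with PBS; limma adjusted p = 0.0525). Neither passed the threshold; without placebo animal 3 the difference from placebo was -1.65 and passed (limma adjusted p = 0.0287), and without placebo animal 1 it was -0.92 (limma adjusted p = 0.176). Placebo and PBS overlapped and differed by -0.41 ± 0.316 (adjusted p = 0.999 in limma).

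At slaughter S100A12 was low on day 12 in both groups and higher on the later days, most so in pregnant animals. On day 12 the cyclic animals read 3.94, 3.69, 4.17, 4.20 and 3.53 and the pregnant animals 5.04, 3.92, 3.87, 4.04 and 3.70. Apart from pregnant animal 1 the groups shared one range, and the difference was 0.21 ± 0.254 (limma adjusted p = 0.95, n = 5 and 5). On day 15 the cyclic animals read 7.27, 6.21 and 6.62 and the pregnant ones 8.20, 7.86 and 7.72, without overlap. S100A12 rose by 1.23 ± 0.328 (7.93 against 6.70, 2.34-fold; limma adjusted p = 0.0306, n = 3 and 3), the only member probe set of 9 past the threshold on that day, where 2.75% of all probe sets were higher and 2.32% lower. This rise is part of a difference of effects that may have chosen S100A12, so its p is a description and no independent support. The call was lost when any pregnant animal or cyclic animal 2 or 3 was left out (0.98 to 1.33, limma adjusted p up to 0.169) and in the fit on day 15 arrays alone (limma adjusted p = 0.0683). On day 18 the cyclic animals read 6.88, 6.86, 6.36 and 6.24 and the pregnant ones 8.42, 9.74, 8.95 and 8.88, a difference of 2.41 ± 0.284 with no overlap (5.32-fold, n = 4 and 4).

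S100A8, the partner of S100A9 in calprotectin, was highest in the biopsies with PBS. Its arrays read 7.46, 6.95 and 7.24 with IFNA, 9.04, 8.31 and 7.02 with placebo and 9.18, 9.22 and 9.63 with PBS. On the centred scale the PBS arrays were the highest of all 33, and the lowest placebo array lay inside the IFNA range. IFNA differed from placebo by -0.91 ± 0.429 (95% interval -1.88 to 0.07; limma adjusted p = 0.625) and from PBS by -2.13 ± 0.429 (-3.10 to -1.15; limma adjusted p = 0.0795), and placebo from PBS by -1.22 ± 0.429 (limma adjusted p = 0.999). The difference between IFNA and placebo varied with the placebo animals kept, at -0.45 without animal 1 and -1.46 without animal 3, neither past the threshold. Both the IFNA and the placebo arrays lay wholly below PBS, and the PBS arrays serve in both comparisons. The placebo animal with the lowest S100A8 and S100A12, animal 3, also had the lowest GAPDH signal difference of the biopsies (1.03); with that difference as a covariate S100A12 was -1.26 and S100A8 -0.86 against placebo.

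On day 12 S100A8 read 4.97, 5.05, 4.97, 5.05 and 4.65 in cyclic and 4.93, 5.07, 4.85, 5.71 and 4.90 in pregnant animals, and on day 15 it read 6.18, 5.23 and 5.49 against 6.11, 5.99 and 6.04. The groups overlapped on both days, with differences of 0.15 ± 0.209 and 0.41 ± 0.27 (limma adjusted p = 0.954 and 0.459). On day 18 cyclic animals read 5.95, 5.86, 6.64 and 5.88 and pregnant animals 6.65, 7.72, 6.93 and 6.65, so that the groups were separated by only 0.01 at their nearest arrays. The difference was 0.91 ± 0.234.

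The 2 probe sets of S100A9 disagreed on day 18. The first, with the higher mean over all arrays, varied little (6.18 to 7.30), and the second ran from 2.78 to 5.98. At slaughter the second was dim, with group means from 2.93 to 4.28, and the filter on dim probe sets left it out of the day 18 comparison. In the biopsies the second read 4.70, 4.53 and 4.02 with IFNA, 5.92, 4.30 and 4.11 with placebo and 5.81, 5.98 and 5.84 with PBS, and the first 6.65, 6.63 and 6.78, then 7.24, 6.88 and 6.73, then 7.26, 7.27 and 7.30. Both were highest and tightest with PBS, as S100A8 was, and placebo animal 1 stood near PBS in each. IFNA against PBS gave -1.46 ± 0.42 for the second and -0.59 ± 0.133 for the first (limma adjusted p = 0.224 and 0.115), and IFNA against placebo -0.36 ± 0.42 and -0.26 ± 0.133 (0.896 and 0.661). Without placebo animal 1 the second turned to 0.21. On day 18 the second read 3.76, 3.80, 3.88 and 3.41 in cyclic and 4.31, 4.89, 4.15 and 3.77 in pregnant animals, a difference of 0.57 ± 0.17, which was 0.36 without pregnant animal 2 and 0.47 without cyclic animal 4, both under the threshold. It was also under the threshold with quantile normalisation (0.42), with array weights and when only the day 18 arrays were fitted. For the first it was -0.03 ± 0.066. On days 12 and 15 the S100A9 differences lay between -0.03 and 0.16, none past the threshold.

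**Figure D1:**
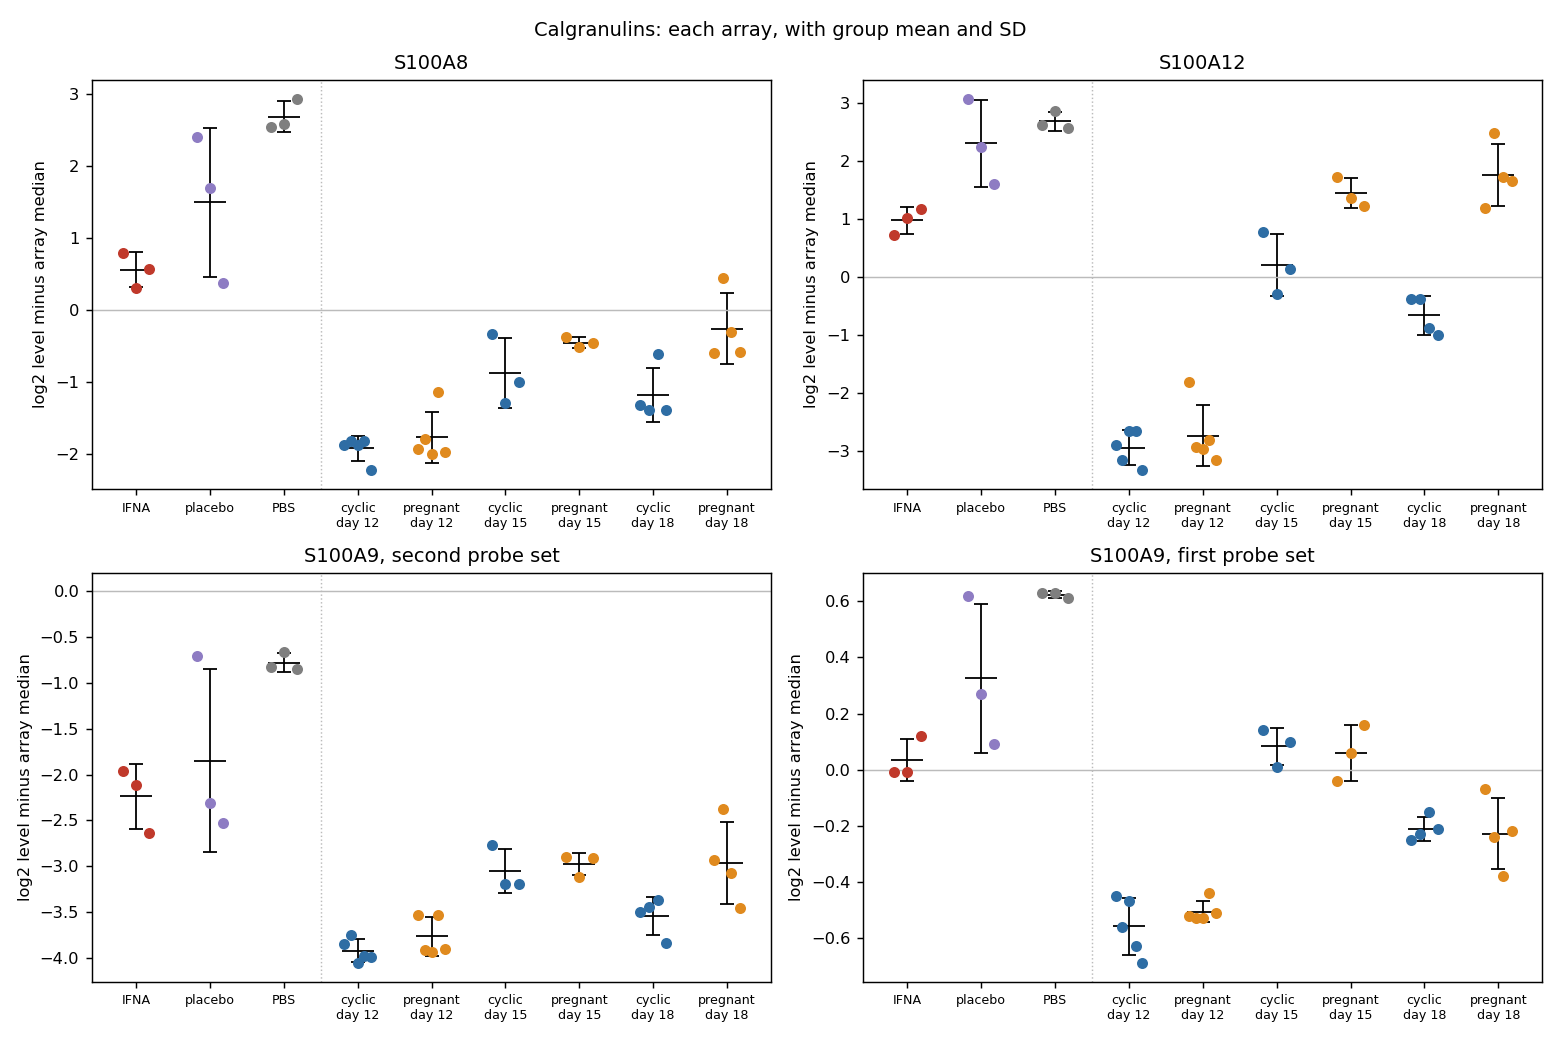
Calgranulin probe sets on each array (points), as log2 level minus the array's median, with the group mean and SD (bars), for the 3 biopsy groups and the 6 slaughter groups. For S100A12 the 3 IFNA arrays lie between 0.72 and 1.17, below placebo and PBS, while the pregnant arrays of days 15 and 18 lie between 1.18 and 2.47, above the cyclic arrays of the same day.

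Ordered over the 9 groups on the centred scale, S100A8 ran from PBS (2.69, SD 0.217) through placebo (1.50, SD 1.03), IFNA (0.56, SD 0.245) and pregnant day 18 (-0.26, SD 0.489) down to cyclic day 12 (-1.92, SD 0.172). Of its neighbours in that order, placebo and IFNA, pregnant days 18 and 15, pregnant and cyclic day 15, cyclic days 15 and 18, and pregnant and cyclic day 12 differed by less than the larger of their SDs. S100A12 had PBS (2.68), placebo (2.30), pregnant day 18 (1.76) and pregnant day 15 (1.43) at the top, each within the larger SD of the next, then IFNA (0.97), cyclic day 15 (0.20), cyclic day 18 (-0.67), pregnant day 12 (-2.74) and cyclic day 12 (-2.95). Between days 12 and 15 the centred level of S100A12 was 3.15 higher in cyclic and 4.18 higher in pregnant animals. S100A8 was 1.05 and 1.32 higher. Both steps were without overlap, but over all probe sets 35.8% (cyclic) and 36.4% (pregnant) were higher without overlap in the same comparisons.

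BPI was dim in the biopsies (group means from 4.39 to 5.36). It was higher with IFNA than with either control, past the threshold only against PBS, and higher still in pregnancy on day 18. It read 5.13, 5.69 and 5.25 with IFNA, 4.46, 4.62 and 4.74 with placebo and 4.48, 4.17 and 4.52 with PBS. All IFNA arrays lay above all 6 controls. BPI rose by 0.97 ± 0.167 over PBS (5.36 against 4.39, 1.95-fold; limma adjusted p = 0.0369, n = 3 and 3), the only member probe set of 9 past the threshold in that comparison, where 0.712% of all probe sets were higher and 0.15% lower. The call was lost when IFNA animal 2 or 3 or any PBS animal was left out (0.80 to 1.08 over the fits that leave out 1 animal, limma adjusted p up to 0.175), and when only the IFNA and PBS arrays were fitted (limma adjusted p = 0.0781). Over placebo BPI was 0.75 ± 0.167 higher (95% interval 0.37 to 1.13) without passing (limma adjusted p = 0.11), and placebo differed from PBS by 0.22 ± 0.167.

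At slaughter BPI did not separate the groups on day 12 and separated them widely on day 18. On day 12 it read 3.92, 3.78, 3.87, 3.88 and 3.82 in cyclic and 4.13, 3.82, 3.58, 4.00 and 3.72 in pregnant animals, a difference of 0.00 (limma adjusted p = 0.997). On day 15 cyclic animals read 4.53, 4.41 and 4.89 and pregnant animals 4.96, 4.89 and 5.05, so that the highest cyclic array equalled the lowest pregnant one (0.36 ± 0.176, limma adjusted p = 0.282). On day 18 cyclic animals read 5.14, 4.85, 5.11 and 4.80 and pregnant animals 6.64, 7.26, 6.47 and 7.24. The groups lay 1.33 apart at their nearest arrays, and the difference was 1.93 ± 0.152 (3.80-fold). The pregnancy difference of BPI was 1.57 ± 0.232 larger on day 18 than on day 15, the only one of the 9 member probe sets past the threshold for that change, against 0.167% of all probe sets with a larger and 0.0416% with a smaller effect.

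LTF passed in no comparison. Its first probe set, with the higher mean, read 11.25, 10.26 and 9.58 with IFNA, 10.46, 11.17 and 10.15 with placebo and 9.87, 10.43 and 10.29 with PBS, with differences of -0.23 ± 0.409 for IFNA against placebo and 0.17 ± 0.409 against PBS (limma adjusted p = 0.945 and 0.983). On the centred scale the biopsy groups (3.54 to 3.97) stood above every slaughter group (0.17 to 1.80). On day 12 the cyclic animals read 8.99, 9.93, 8.77, 6.88 and 8.73 and the pregnant ones 8.77, 6.30, 7.58, 7.70 and 7.22. Most cyclic animals were high and animal 4 was low, and pregnancy differed by -1.15 ± 0.492 (95% interval -2.17 to -0.13; limma adjusted p = 0.702). On day 15 LTF read 6.92, 7.25 and 7.46 in cyclic and 6.93, 7.05 and 6.02 in pregnant animals (-0.54 ± 0.635, limma adjusted p = 0.744). On day 18 it read 8.49, 7.38, 7.96 and 5.86 in cyclic and 8.11, 8.61, 8.65 and 8.43 in pregnant animals, a difference of 1.03 ± 0.55, with cyclic animal 4 far below the rest. Its second probe set stayed between 3.26 and 4.50 on all arrays and passed in no comparison.

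PTX3's highest centred group means were with IFNA (2.63), in pregnant animals of day 18 (2.36) and with placebo (2.18), each within the larger SD of the next. It read 8.73, 9.48 and 9.65 with IFNA, 9.25, 8.77 and 8.39 with placebo and 6.10, 7.47 and 8.48 with PBS. The IFNA arrays lay above all PBS arrays, and the placebo arrays overlapped both. IFNA differed from PBS by 1.94 ± 0.535 (95% interval 0.72 to 3.15; limma adjusted p = 0.204), placebo from PBS by 1.45 ± 0.535 (0.24 to 2.67; 0.999) and IFNA from placebo by 0.48 ± 0.535 (-0.73 to 1.70; 0.89). None passed.

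At slaughter PTX3 overlapped between the groups on day 12 and was apart on days 15 and 18. On day 12 it read 8.55, 7.89, 8.83, 8.17 and 7.74 in cyclic and 8.06, 7.37, 6.87, 9.12 and 7.06 in pregnant animals, a difference of -0.54 ± 0.343 (limma adjusted p = 0.846). The pregnant animals spanned the wider range and held both the highest and the lowest array. On day 15 cyclic animals read 6.35, 5.67 and 6.35 and pregnant animals 7.73, 7.67 and 6.88, without overlap, and the difference of 1.30 ± 0.443 did not pass (limma adjusted p = 0.0952). On day 18 cyclic animals read 6.25, 6.67, 5.27 and 5.93 and pregnant animals 9.18, 9.62, 9.93 and 9.69, 2.51 apart at their nearest arrays. The difference was 3.58 ± 0.384 (9.61 against 6.03, 11.9-fold). Centred on the array median, PTX3 differed from day 12 by -1.76 on day 15 and -2.60 on day 18 in cyclic animals, without overlap, and by 0.09 and 1.52 in pregnant ones, with overlap. Between days 12 and 15 the difference between pregnant and cyclic animals grew by 1.84 ± 0.561 without passing (limma adjusted p = 0.0985). It passed when the fit left out pregnant animal 4 of day 12 (2.20, limma adjusted p = 0.0114).

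SAA3 read 11.41, 12.06 and 11.39 with IFNA, 11.64, 11.10 and 12.05 with placebo and 10.35, 11.26 and 11 with PBS. IFNA and placebo did not separate (0.02 ± 0.31, limma adjusted p = 0.994), and the IFNA arrays lay above PBS by 0.75 ± 0.31 (limma adjusted p = 0.487). On day 12 SAA3 read 12.25, 12.41, 12.77, 12.24 and 13.38 in cyclic and 12.10, 10.82, 11.93, 11.76 and 10.97 in pregnant animals. The pregnant arrays all lay below the cyclic ones, the difference being -1.09 ± 0.588 (95% interval -2.31 to 0.13; limma adjusted p = 0.80). On day 15 the animals of each group varied by over 2 log2: 8.66, 11.05 and 7.46 in cyclic and 10.61, 10.32 and 8.06 in pregnant animals (0.61 ± 0.759, limma adjusted p = 0.767). On day 18 cyclic animals read 8.96, 8.92, 8.60 and 8.32 and pregnant animals 9.07, 10.66, 9.93 and 7.55, a difference of 0.60 ± 0.657 in which pregnant animal 4 lay below every cyclic animal. Centred, SAA3 differed from day 12 by -3.20 on day 15 and -4.31 on day 18 in cyclic animals, and by -1.49 and -2.60 in pregnant ones, without overlap except between the pregnant animals of days 12 and 15.

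**Figure D2:**
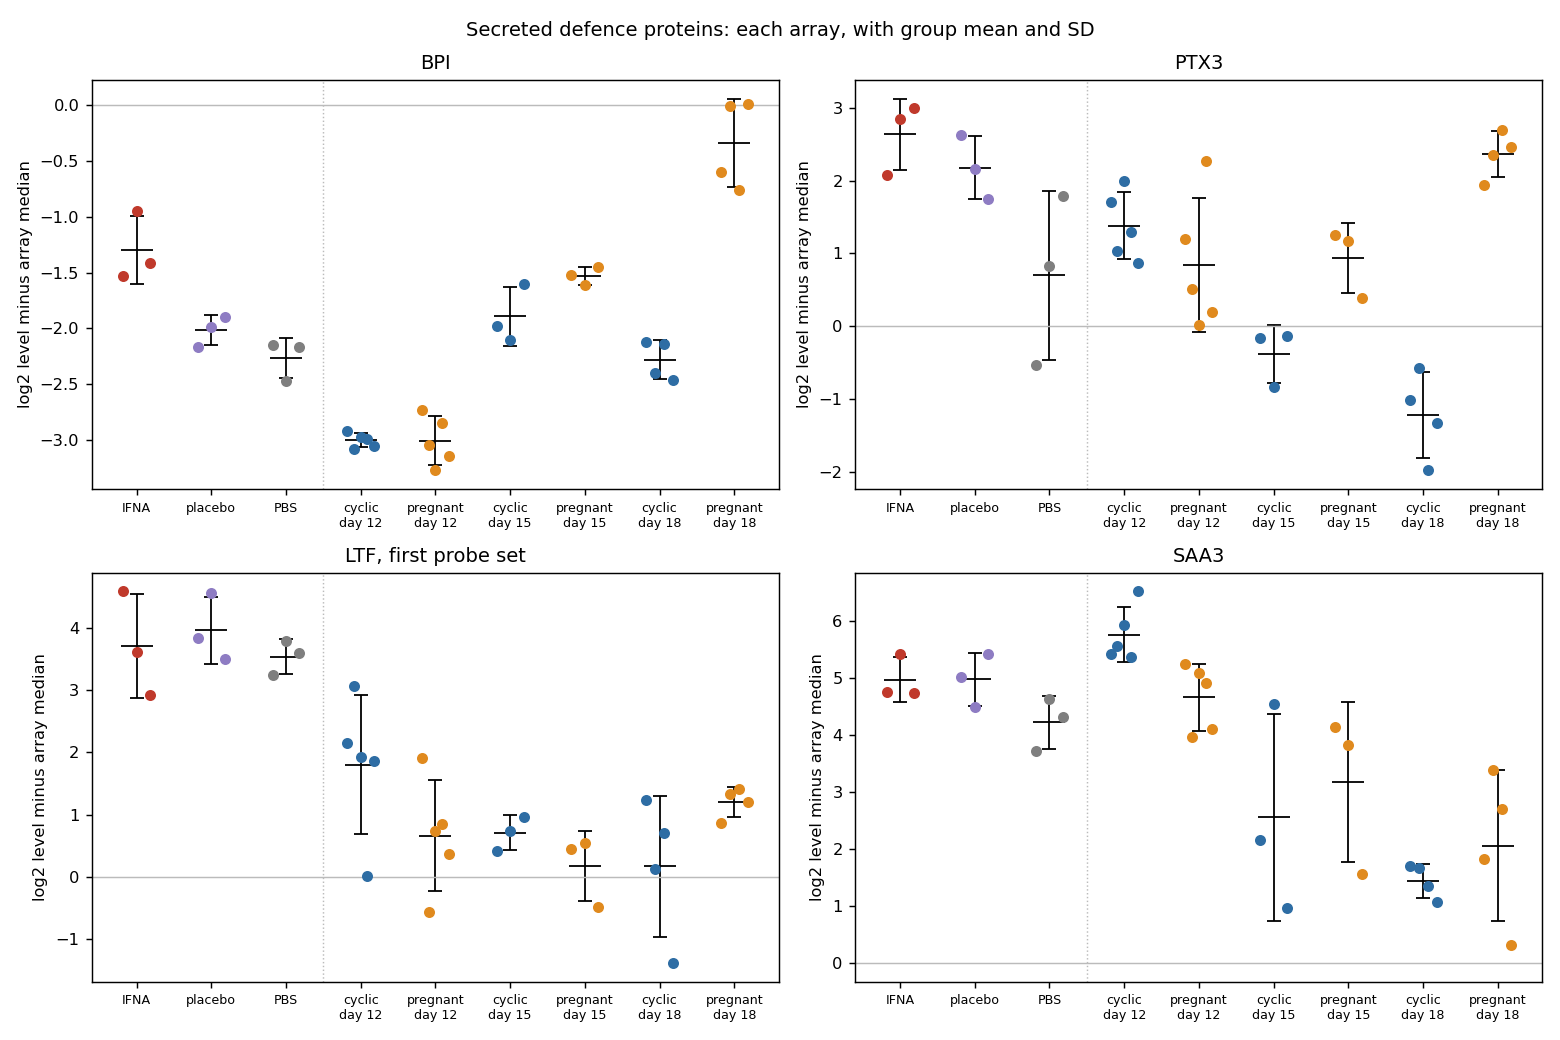
BPI, PTX3, LTF (first probe set) and SAA3 on each array (points), as log2 level minus the array's median, with the group mean and SD (bars). BPI and PTX3 stand high in the 4 pregnant arrays of day 18 (means -0.34 and 2.36) against the cyclic arrays of that day (-2.28 and -1.22), while SAA3 is highest in the cyclic animals of day 12 and LTF highest in the biopsies.

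Counted over the 9 member probe sets, IFNA against placebo gave 0 past the threshold in limma and 2 at an unadjusted p below 0.05, against 0.837% of all probe sets higher and 0.0291% lower past the threshold. By arrays without overlap, 1 was higher (BPI) and 1 lower (S100A12), where all probe sets gave 5.38% and 5.14%. IFNA against PBS gave 3 higher and 4 lower without overlap, against 6.09% and 8.47% of all probe sets, and 7 of the 9 had an unadjusted p below 0.05. The higher ones were BPI, PTX3 and SAA3 and the lower ones the 4 calgranulin probe sets. When only the IFNA and PBS arrays were fitted, those 4 passed (limma adjusted p = 0.00265 for S100A8, 0.00286 for S100A12, 0.0441 and 0.0182 for S100A9) and BPI did not. None of the 4 passed in any of the 6 fits that left out 1 animal (limma adjusted p from 0.11 to 0.612). Of 8 other settings, that fit included, S100A12 passed in 5, S100A8 in 2 and each S100A9 probe set in 1. Placebo against PBS had 0 past the threshold in limma for members and 0% for all probe sets; 5 members had an unadjusted p below 0.05, and 0 were higher and 2 lower without overlap (2.8% and 3.44% of all probe sets). On day 12 limma called 0 members, 1 had an unadjusted p below 0.05, and 0.00416% of all probe sets passed in either direction. Over all 24016 probe sets an unadjusted p below 0.05 was found for 2035 in IFNA against placebo, 2244 in IFNA against PBS, 651 in placebo against PBS and 1597 on day 12. On day 18, 5 of the 9 were higher past the threshold and none lower, beside 8.84% and 10.2% of all probe sets; nothing is read from that count, since it may have chosen the genes.

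**Figure D3:**
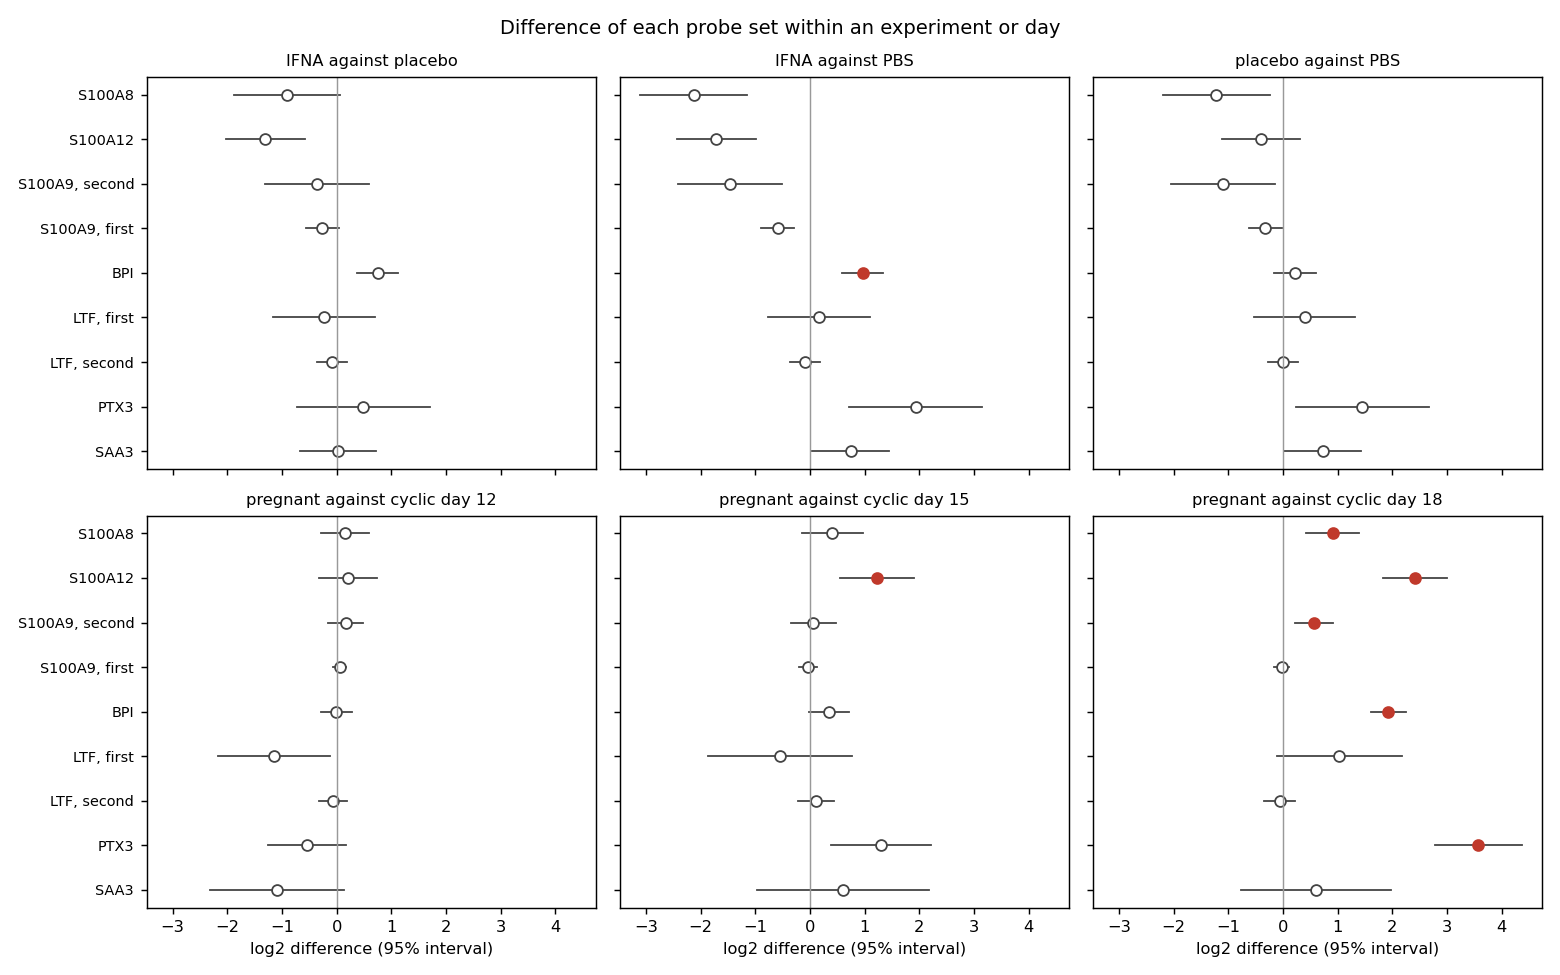
Log2 difference of each of the 9 probe sets with its 95% interval in the 3 biopsy comparisons and in pregnant against cyclic animals on days 12, 15 and 18; filled red points are past the limma threshold and open points are not. Calgranulins lie left of 0 in the biopsy panels and S100A12 lies right of 0 on days 15 and 18, whereas BPI lies right of 0 in the IFNA panels and on days 15 and 18.

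The effect of IFNA over placebo was also set against each pregnancy effect in 1 fit over all 33 arrays. For S100A12 the IFNA effect minus the day 15 pregnancy effect was -2.53 ± 0.478, the only one of the 9 past the threshold, where 0.187% of all probe sets had a larger and 0.183% a smaller IFNA effect; this value met the rule by which genes were named earlier and carries no p. For S100A8 the difference of effects was -1.32 ± 0.478 (limma adjusted p = 0.223), for PTX3 -0.82 ± 0.698 (0.672) and for BPI 0.39 ± 0.251 (95% interval -0.12 to 0.91; 0.542). Against the day 18 effect, 4 members had a smaller IFNA effect past the threshold: S100A12 (-3.72 ± 0.447), PTX3 (-3.09 ± 0.653), S100A8 (-1.81 ± 0.447) and BPI (-1.18 ± 0.234), where 0.371% of all probe sets had a larger and 0.72% a smaller effect. These values contain the day 18 comparison that may have chosen the genes. They are a description, and nothing is read from the count. BPI had the same sign in both effects, and the smaller value is one of size. For S100A8 and S100A12 the signs of the estimates were opposite. The IFNA effects over placebo of BPI, PTX3, S100A8 and S100A12 did not themselves pass the threshold. That of PTX3 was 0.48 (95% interval -0.73 to 1.70), so its sign is not settled. That of S100A8 had a 95% interval of -1.88 to 0.07, so its sign is not settled. The S100A12 call against day 15 was lost without IFNA animal 2 (-2.54), pregnant animal 1 (-2.39) or cyclic animal 2 (-2.28). Against day 18 the S100A8 call was lost in 9 of 14 fits that left out 1 animal (down to -1.35 in size without placebo animal 1), and that of PTX3 without placebo animal 1 (-2.87). When only the compared groups were fitted, S100A8 and BPI were not past the threshold. Between days 12 and 15 the pregnancy effect changed past the threshold in 0 members in limma (2 at an unadjusted p below 0.05), beside 1.37% larger and 0.62% smaller over all probe sets, of which 3470 had an unadjusted p below 0.05.

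Levels between days were described without a test. In cyclic animals 5 members were higher and 2 lower without overlap on day 15 than on day 12, against 35.8% and 16.5% of all probe sets. From day 15 to day 18, 0 were higher and 4 lower (18% and 33.8%), and from day 12 to day 18, 4 were higher and 2 lower (22.9% and 22.9%). In pregnant animals 5 were higher and 0 lower on day 15 than on day 12 (36.4% and 19.4%), 3 higher and 1 lower on day 18 than on day 15 (18.4% and 32.7%), and 5 higher and 1 lower on day 18 than on day 12 (23.7% and 26.2%). The 5 that were higher from day 12 to day 15 were the 4 calgranulin probe sets and BPI, in both kinds of animals. BPI (1.19), PTX3 (1.43) and LTF (1.03) were the 3 higher ones between days 15 and 18 of pregnancy.

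Markers of neutrophils, the cells best known for calgranulins, BPI and LTF, did not pass in the biopsies. Of 24 markers listed 12 were measured, and in the biopsy comparisons limma called 0 of 12 (3 at an unadjusted p below 0.05 for IFNA against placebo, 2 against PBS and 0 for placebo against PBS); the medians were -0.03 for IFNA against placebo, -0.06 against PBS and -0.04 for placebo against PBS, beside medians near 0 for all probe sets (-0.02, -0.01 and 0.00). Their mean centred level ran from -1.59 to -1.39 with IFNA, -1.74 to -1.50 with placebo and -1.69 to -1.45 with PBS. CXCR1, the neutrophil receptor for CXCL8, was dim and averaged 4.64 with IFNA, 4.93 with placebo and 5.25 with PBS. FCGR3A, an Fc receptor also carried by macrophages and NK cells, averaged 6.90 with IFNA, 5.37 with placebo and 5.74 with PBS, and NCF1, a subunit of the phagocyte oxidase, averaged 7.27, 6.27 and 6.72, so both were highest with IFNA, where CXCR1 was lowest. In the same order, NCF4 averaged 6.66, 6.27 and 6.56, and VNN2, a pantetheinase of neutrophils, 7.24, 6.94 and 7.34. TREM1 averaged 4.88, 4.91 and 4.88, and AOAH 7.10, 7.14 and 7.24, so of these only AOAH ran as CXCR1 did. ELANE and MPO, granule enzymes made mainly in bone marrow precursors, ITGAM, an integrin of neutrophils and macrophages, the acute phase protein ORM1 and the granule protease MMP9 were dim throughout, with group means of at most 3.99 for ELANE, 5.27 for MPO, 3.48 for ITGAM, 3.58 for ORM1 and 4.96 for MMP9.

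On day 18 of pregnancy 3 of the 12 rose and 0 fell, where 8.84% of all probe sets were higher and 10.2% lower. FCGR3A rose by 1.23 ± 0.127, VNN2 by 1.28 ± 0.447, and NCF1 by 0.56 ± 0.141 (limma adjusted p = 3.52e-07, 0.0485 and 0.00738). The centred mean of VNN2 was highest in cyclic animals of day 12 (1.34), the group in which S100A8 and S100A12 were lowest. In pregnant animals of day 18 it was -0.37. The mean level of the 12 was -2.06 to -1.92 in cyclic and -1.81 to -1.69 in pregnant animals of that day, without overlap. FCGR3A also had a larger effect on day 18 than on day 15 (1.19 ± 0.194) and with IFNA than on day 15 of pregnancy (1.49 ± 0.289; limma adjusted p = 0.00572 and 0.0181). Of 9 measured macrophage and dendritic cell markers 6 rose on day 18, among them C1QB, a C1q chain (1.69 ± 0.185), and MSR1, a scavenger receptor (1.44 ± 0.196), and 3 rose with IFNA over placebo (C1QB, C1QC and CSF1R). Over all probe sets 0.837% were higher and 0.0291% lower with IFNA against placebo, and 0.712% and 0.15% against PBS. With IFNA over PBS, C1QB rose by 1.65 and C1QC by 1.44, and CD5L, a scavenger protein secreted by macrophages, fell by 1.20 (limma adjusted p = 0.0317, 0.0367 and 0.00885). Their mean level was 1.35 to 1.78 with IFNA, 0.26 to 0.88 with placebo and 0.81 to 0.99 with PBS, and 1.22 to 1.64 in pregnant against 0.25 to 0.54 in cyclic animals on day 18. The BPI arrays lay above their controls both with IFNA and on day 18 of pregnancy, while those of S100A12 lay below both controls with IFNA and above the cyclic arrays on day 18. The part of any cell type in these values was not tested.

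**Figure D4:**
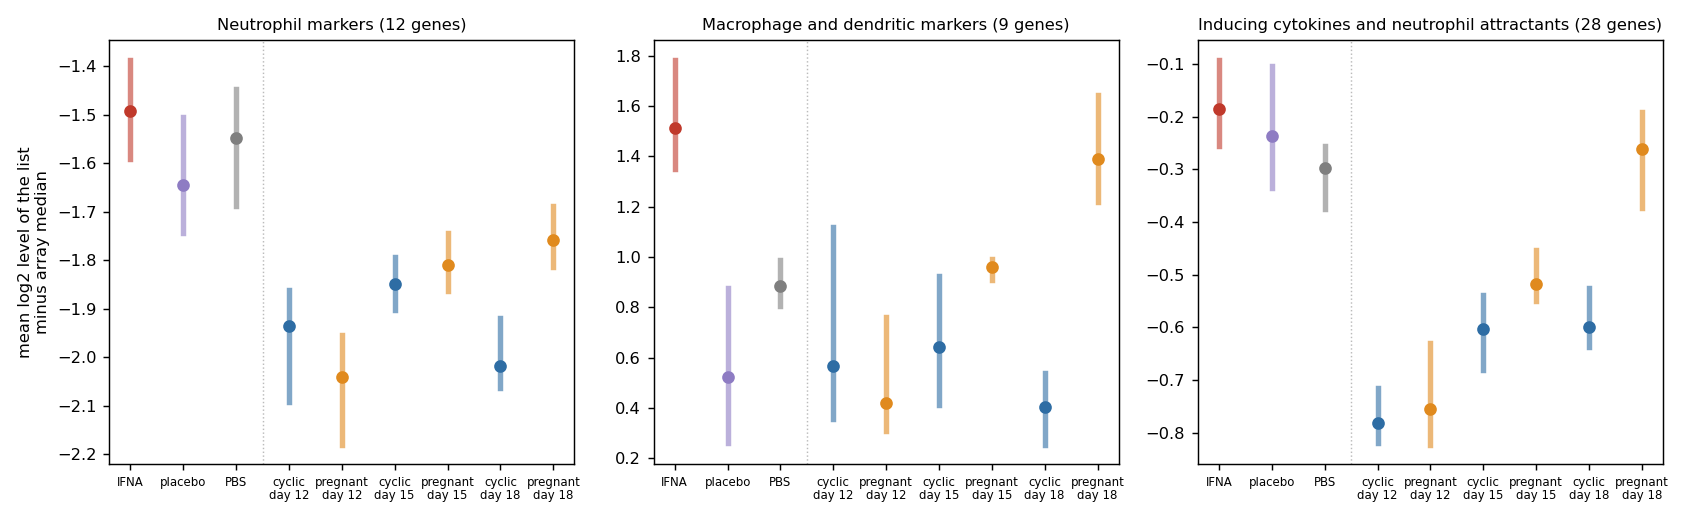
Mean centred log2 level of the measured neutrophil markers (12 genes), macrophage and dendritic cell markers (9) and inducing cytokines and neutrophil attractants (28) in each group; dots are group means and bars run from the lowest to the highest array. Macrophage markers are high with IFNA (1.51) and in pregnancy on day 18 (1.39), and the neutrophil markers of the biopsies lie above all slaughter groups in their means (-1.65 to -1.49). The means of the erythrocyte and platelet markers (-1.76 to -1.67 in the biopsies) and of the other antimicrobial proteins, not plotted, do so too. Biopsies and slaughter arrays appear to have been normalised separately.

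Markers of other tissue cells were counted beside the share of all probe sets past the threshold. That share was 2.75% higher and 2.32% lower on day 15, 8.84% and 10.2% on day 18, and 0.712% and 0.15% for IFNA against PBS. Of 12 epithelial markers 3 rose on day 15 and 3 rose and 1 fell on day 18, of 10 stromal markers 1 rose on day 15 and 1 rose and 2 fell on day 18, and of 11 endothelial markers 2 fell on day 15, 6 fell on day 18 and 2 fell with IFNA against PBS. Of 13 T and NK cell markers 1 rose and 1 fell on day 18. Of 7 erythrocyte and platelet markers limma called 0 in every comparison, with at most 1 at an unadjusted p below 0.05.

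In a list of inducing cytokines, leukocyte attractants and related genes, some rose on day 18 of pregnancy, among them the chemokines CCL2 and CXCL2. Of 33 listed genes 28 were measured and 9 rose on day 18, with a median of 0.23 against -0.03 over all probe sets. Over all probe sets 8.84% were higher and 10.2% lower on that day. The genes named here are the 4 with the largest change: attractants, a receptor antagonist and a hyaluronan-binding protein. The other genes that rose are not named, so a rise of the inducing cytokines themselves is neither shown nor excluded. CCL2, a monocyte attractant, rose by 1.80 ± 0.288, IL1RN, the interleukin 1 receptor antagonist, by 1.54 ± 0.161, CXCL2, a neutrophil attractant, by 1.32 ± 0.365, and TNFAIP6, a hyaluronan-binding protein that partners PTX3 in matrix, by 1.01 ± 0.181 (limma adjusted p = 0.000122, 4.07e-07, 0.0138 and 0.000401). In each biopsy comparison and on days 12 and 15 limma called 0 of the 28, with 0 to 5 at an unadjusted p below 0.05. The effect on IL1RN was larger on day 18 than on day 15 by 1.33 ± 0.246 (limma adjusted p = 0.0185) and smaller with IFNA than on day 18 (-0.99 ± 0.237; 0.0355).

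Of 13 measured receptors and sensors of these proteins (21 listed), 3 rose on day 18 and none elsewhere: CASP1, which cleaves pro-interleukin 1 beta, by 0.63 ± 0.13, the adaptor MYD88 by 0.38 ± 0.087 and TLR4, the lipopolysaccharide receptor that S100A8 and S100A9 also engage, by 0.27 ± 0.0863 (limma adjusted p = 0.00142, 0.00395 and 0.0314). Over all probe sets 8.84% were higher and 10.2% lower on day 18. AGER, the receptor for advanced glycation end products named as a receptor of S100A12, did not pass in any comparison; its means on day 18 were 6.35 in pregnant and 6.62 in cyclic animals.

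Of other antimicrobial and acute phase proteins (36 measured of 52 listed) 5 rose on day 18 and none fell, with a median of 0.02. Over all probe sets 8.84% were higher and 10.2% lower on day 18, and 2.75% and 2.32% on day 15. The count of 5 was not tested against that share. Haptoglobin (HP), which binds free haemoglobin, rose by 1.09 ± 0.218, the chitinase-like CHI3L1 by 1.03 ± 0.155, LBP, the lipopolysaccharide-binding relative of BPI, by 0.65 ± 0.169, and the enteric beta-defensin EBD by 0.58 ± 0.202 (limma adjusted p = 0.0011, 5.96e-05, 0.00894 and 0.0474). BPIFB1, another relative of BPI that is secreted by mucosal epithelium, fell on day 15 by 1.37 ± 0.334 (8.76 against 10.13; limma adjusted p = 0.0183), the only gene of the list past the threshold there. In the biopsies and on day 12 limma called 0 of the 36, with 1 to 3 at an unadjusted p below 0.05. Of 11 other S100 proteins measured (16 listed), S100A2, an epithelial calcium-binding protein, rose on day 15 by 1.02 ± 0.157 and on day 18 by 0.56 ± 0.136 (limma adjusted p = 0.00025 and 0.00556), S100A11 rose on day 18 by 0.56 ± 0.114, and S100B fell by 0.60 ± 0.179. In the biopsies limma called 0 of the 11 (0 to 2 at an unadjusted p below 0.05).

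Within groups the calgranulins correlated more in the biopsies than at slaughter, and most of the spread in the biopsies lay in the placebo animals. As a description over 33 arrays, deviations from the group means correlated at r = 0.56 for S100A8 with S100A12 and for S100A8 with S100A9 (first probe set), and at 0.33 for S100A9 with S100A12; these arrays share normalisation within a set. In the 9 biopsies the same r were 0.80, 0.86 and 0.96, and at slaughter 0.44, 0.24 and -0.08. With placebo, centred S100A8 read 2.41, 1.70 and 0.38 and S100A12 3.07, 2.23 and 1.59, in the same order. With IFNA they read 0.80, 0.31 and 0.58 against 0.72, 1.01 and 1.17. With PBS they read 2.55, 2.58 and 2.94 against 2.61, 2.86 and 2.56. In neither of these groups did S100A8 and S100A12 run in the same order. S100A12 with PTX3 had 0.48 over all arrays, whereas BPI with S100A8 had 0.05 and BPI with PTX3 0.19. The 2 probe sets of S100A9 had 0.55 and those of LTF 0.41.

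The genes with the pattern most like each member were taken by Pearson r of centred levels over the 33 arrays, which includes the differences between sets. For S100A8 they were SRGN, the granule proteoglycan serglycin (r = 0.932), FASTKD2 (0.926) and FLI1 (0.926). For S100A9 they were NHEJ1 (0.938), KLF10 and RAB3GAP1, and for S100A12 NDUFV3 (0.963), CHCHD3 (0.957) and IL13RA1 (0.944). BPI was most like IL1RN (0.941), PLET1 (0.906) and FBP1 (0.901). PTX3 was most like STK17A (0.84), LTF most like DLD (0.868) and SAA3 most like RIDA (0.863). In deviations from the group means these r were lower, at 0.65 for SRGN with S100A8, 0.59 for NDUFV3 with S100A12, 0.50 for IL1RN with BPI and 0.04 for PLET1 with BPI.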

How the data were processed

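Per the submitters' processing notes the authors used RMA (package affy, version not given), and the deposited values are log2 levels of probe sets. Sorted values matched within 4 sets of arrays (biopsies, day 12, day 15, day 18; largest SD of a sorted value 0.0511 to 0.0751, against 0.333 over all 33 arrays), so separate normalisation was inferred. Their medians were 6.64, 6.86, 6.50 and 7.25. Of the probe sets, 112 controls were left out and 24016 tested; 13292 had 1 gene symbol in the array annotation, 86 several and 10638 none. The probe set with the highest mean stood for a listed gene.

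With R 4.3.3, limma 3.58.1 fitted a mean for each group (lmFit, eBayes) on the 9 biopsy, 24 slaughter or all 33 arrays, two-sided, with Benjamini-Hochberg adjustment over all probe sets; it was tested on simulated data. Named were all member probe sets, up to 4 genes past the threshold per list and comparison, and 3 genes of most like pattern per member. AGER and the neutrophil markers CXCR1, ELANE, MPO, ITGAM, ORM1, MMP9, NCF4, TREM1 and AOAH were named after their values were seen. Members and lists were chosen with earlier results of these data known. Alternatives were centring, quantile normalisation, the replicate block, array weights, the compared groups alone, a trended robust prior, a filter on dim probe sets, a GAPDH covariate and leaving out each animal. The number of arrays limits the precision.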

Additional observations from a re-analysis of the deposited data

Results flagged for a closer look

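In the groups of 4 or 5 animals, 36 sets of values were checked for an array far from the others and 4 stood out; chance gives about 5% of such sets. S100A8 read 4.65 in cyclic animal 5 of day 12 (the nearest other array 4.97), 5.71 in pregnant animal 4 of day 12 (nearest 5.07) and 6.64 in cyclic animal 3 of day 18 (nearest 5.95). S100A12 read 5.04 in pregnant animal 1 of day 12 (nearest 4.04).

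Differences between effects that were past the threshold are given as a description. They were the pregnancy effect on BPI, larger by 1.57 on day 18 than on day 15, and the IFNA effect on S100A12, which was below the day 15 pregnancy effect (-2.53). The IFNA effect was also below the day 18 pregnancy effect for S100A12 (-3.72), PTX3 (-3.09), S100A8 (-1.81) and BPI (-1.18). All of these values, that of BPI between days 15 and 18 and that of S100A12 against day 15 included, may have chosen the genes and are no independent support.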

How the results depend on the processing

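Of the member probe sets past the threshold, IFNA against placebo had 0 and had 2 with array weights (S100A12 -1.73 and BPI 0.85). IFNA against PBS had 1, and 3 with array weights, 4 in the fit on the compared groups alone (the calgranulin probe sets, without BPI), and 2 each with the trended robust prior, the dim filter and the GAPDH covariate. In the fits on the compared groups alone, day 15 had 0 (main 1), the IFNA effect against that of day 15 had 0 (main 1; 4 with array weights) and against day 18 had 2 (main 4; 6 with array weights). Leaving out 1 animal gave 0 to 1 for IFNA against placebo, IFNA against PBS, day 15 and the change from day 12 to day 15, 0 to 0 for placebo against PBS and for day 12, 4 to 5 for day 18, 1 to 1 for the change from day 15 to day 18, and 0 to 2 and 2 to 4 for the IFNA effect against days 15 and 18. Between days, counts without overlap ran from 7 to 8, 4 to 5 and 6 to 7 in cyclic and 5 to 6, 4 to 5 and 6 to 7 in pregnant animals (days 12 to 15, 15 to 18 and 12 to 18).

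Deviations of same-numbered animals correlated at -0.337 to 0.368. The labels give only a replicate number, so whether the numbers pair the animals is not known. With the replicate number as a block, IFNA against PBS had 0 members past the threshold (BPI adjusted p = 0.112 in limma), S100A8 lost its call in the IFNA effect against day 18, and no other member call changed.

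Without centring, days 15 to 18 gave 2 in cyclic (main 4) and 8 in pregnant animals (main 4), and, among probe sets whose centred arrays did not overlap, the sign turned in cyclic animals for S100A9 (0.46 and 0.26 for its 2 probe sets) and BPI (0.37), and in pregnant animals for the first S100A9 probe set (0.46). Among those whose arrays overlapped, S100A8 and the first LTF probe set turned in cyclic animals and the second LTF probe set in pregnant ones (there also with quantile normalisation); over the other steps the second LTF probe set (from day 12 to 18, both kinds of animals) and PTX3 (from day 12 to 15, pregnant) turned too. The cause of the other shifts was not tested.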
